A study of Mus musculus with 12 samples.

Results

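H19 and 9 other imprinted genes (Igf2, Igf2r, Meg3, Dlk1, Peg3, Mest, Plagl1, Grb10 and Phlda2) were followed by name through RNA-seq libraries of a pair of related mouse mammary tumor lines. They are 10 of the 52550 genes of the files, and they were chosen by gene name with their TPM across the groups and batches already known. Their levels and differences are therefore given as a description, without p-values. D2A1 and D2.OR came from separate tumors of D2 hyperplastic alveolar nodules, and both lines carry more than a diploid set of chromosomes. D2A1 keeps proliferating on Matrigel, a basement membrane gel, while D2.OR is used as a model of dormant cells there. Each line was grown for a week either in 2D or in 3D, on top of growth-factor-reduced Matrigel in a low-serum medium with insulin, hydrocortisone and cholera toxin. The study's RNA-seq methods refer to its cell culture section, where 2D cells were seeded in high-glucose DMEM. Its dormancy assays put 2D cells in the 3D medium. Whether these 2D libraries shared the 3D medium is thus not settled, and medium and culture cannot be told apart. There were 3 libraries in each of the 4 groups and 12 in all, each from 10 pooled wells, and the replicate number marks a batch with a sequencing lane of its own. 3D cells were taken out of the gel with a cold recovery solution before RNA extraction, so the effects of culture and of recovery cannot be told apart.

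Imprinted genes are expressed from one parental copy, set by DNA methylation laid down in the germ line at control regions that often govern a cluster of genes. H19, a long non-coding RNA, and Igf2, a growth factor, share enhancers and are expressed from opposite parental copies. Igf2r encodes the receptor that carries IGF2 to the lysosome and is overlapped by Airn, a non-coding RNA transcribed from the other strand. Many of these genes control growth before birth and are turned down in adult tissues. The libraries do not separate the parental copies, so every level below is a sum over all copies of a gene. In cultures of this kind, fewer cells expressing a gene and less RNA per cell cannot be told apart.

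H19 lies at chr7:142575529-142578143 on the minus strand of GRCm38 and hosts a microRNA, miR-675, whose hairpin lies inside it at chr7:142577064-142577147. Mest hosts miR-335 at chr6:30741299-30741396. The mature arms are shown because they are the small RNAs that these transcripts can give rise to (RefSeq, GRCm38.p6). Capitals mark the seed, bases 2 to 8 of the arm that pair with a target.
miR-675-5p: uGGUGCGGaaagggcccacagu
miR-675-3p: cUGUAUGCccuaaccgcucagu
miR-335-5p: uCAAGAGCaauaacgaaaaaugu
miR-335-3p: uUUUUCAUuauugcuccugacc
The 4 seeds differ. The microRNA genes themselves (Mir675, Mir335, Mir483 in Igf2 and Mir770 in Meg3) had 0 counts in all 12 libraries, and RNA-seq of this kind does not measure the mature arms.

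For the members whose levels differed most between the groups, the RefSeq window from 250 bases before to 50 bases after a transcript start is shown, 5′ to 3′ on the strand of the gene. Capitals mark CG, the dinucleotide at which DNA is methylated in mammals. DNA methylation was not measured in these libraries. The table holds 32851 windows, with a median of 7 CG, and 9 of the 10 members have one or more. H19 has none.
Igf2r, chr17:12769657-12769956, minus strand: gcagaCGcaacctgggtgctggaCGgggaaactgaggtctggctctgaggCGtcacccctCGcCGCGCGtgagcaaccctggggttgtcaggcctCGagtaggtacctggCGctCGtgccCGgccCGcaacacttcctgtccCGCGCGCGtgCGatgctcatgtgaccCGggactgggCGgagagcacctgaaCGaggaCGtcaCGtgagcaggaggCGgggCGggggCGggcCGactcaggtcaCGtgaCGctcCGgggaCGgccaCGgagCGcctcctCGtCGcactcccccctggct
Peg3, chr7:6730370-6730669, minus strand: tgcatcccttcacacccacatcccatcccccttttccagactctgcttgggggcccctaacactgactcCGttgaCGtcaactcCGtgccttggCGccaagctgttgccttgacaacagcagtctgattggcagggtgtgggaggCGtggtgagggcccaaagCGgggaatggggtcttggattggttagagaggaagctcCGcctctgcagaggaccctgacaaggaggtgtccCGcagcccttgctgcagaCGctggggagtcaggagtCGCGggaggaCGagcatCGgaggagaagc
Mest, first window, chr6:30733256-30733555, plus strand: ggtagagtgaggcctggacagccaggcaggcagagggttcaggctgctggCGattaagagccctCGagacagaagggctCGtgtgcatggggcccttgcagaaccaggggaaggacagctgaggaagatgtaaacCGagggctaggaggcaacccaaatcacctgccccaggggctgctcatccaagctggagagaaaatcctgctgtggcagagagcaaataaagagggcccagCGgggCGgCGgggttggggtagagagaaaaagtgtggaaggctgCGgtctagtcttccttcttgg
Mest, second window, chr6:30737800-30738099, plus strand: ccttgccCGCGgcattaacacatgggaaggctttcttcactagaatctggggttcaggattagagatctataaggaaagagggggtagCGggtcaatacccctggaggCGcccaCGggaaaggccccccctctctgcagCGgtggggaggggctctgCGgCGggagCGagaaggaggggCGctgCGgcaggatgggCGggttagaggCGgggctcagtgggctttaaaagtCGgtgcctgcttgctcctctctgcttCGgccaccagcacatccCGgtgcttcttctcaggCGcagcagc
The Igf2r window holds 34 CG, a number reached by 7.73% of all windows. The Peg3 window holds 13 CG, reached by 37.9%. It shares 263 bases with the window of Usp29, a gene read in the opposite direction whose start lies 164 bases away. The Mest windows shown hold 8 and 17 CG, reached by 48.6% and 31.4%. The third Mest window of the table, chr6:30737803-30738102, overlaps the second almost whole and also holds 17 CG.

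The libraries held 47589611 to 73325069 expected counts each, and 16823 genes passed the filter on low counts. Within each group the batch 1 library stood apart from those of batches 2 and 3, with a chi-square per degree of freedom of 185.9 to 277.1 against 30.9 to 71.9 between batches 2 and 3, so values without batch 1 are given where it matters. Of the cell type markers, Krt8, a luminal keratin, had 0.78 to 2.31 TPM in D2A1 and 227 to 1022 TPM in D2.OR, and Vim, a mesenchymal filament, had 733 to 5313 TPM in all libraries. Epcam, an epithelial adhesion molecule, had at most 0.17 TPM in D2A1. Krt8 and Epcam were thus close to absent there, while the summed TPM of all 6 luminal markers was 205 to 297 in D2A1 2D, 94 to 221 in D2A1 3D, 1167 to 1721 in D2.OR 2D and 419 to 877 in D2.OR 3D. The sum was thus lower in 3D than in 2D in D2.OR, with overlapping ranges in D2A1, and higher in D2.OR than in D2A1, as were H19 and Igf2r below. The sum of the 4 mesenchymal markers was also higher in D2.OR, at 4729 to 5910 TPM against 2910 to 3460 in 2D. In 3D it was 3472 to 6223 against 1607 to 3435. The sum of the 4 basal markers was 9.64 to 16.6 TPM in D2.OR 2D against 2.47 to 2.95 in D2A1 2D. In 3D it was 9.44 to 45.1 against 0.61 to 2.33. The sums of leukocyte and endothelial markers were not higher in D2.OR in either culture. The part of these markers in those results was not tested.

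Of the 10 members, 6 passed the filter (H19, Igf2r, Peg3, Mest, Plagl1 and Phlda2). Igf2, Grb10, Meg3 and Dlk1 did not. In TPM, a value per transcript length, Igf2r was the most abundant member in every group, at 57.2 ± 2.00 TPM in D2.OR 2D (mean ± SD, n = 3 throughout). Meg3 and Dlk1 lay at the other end of the range.

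**Figure D1:**
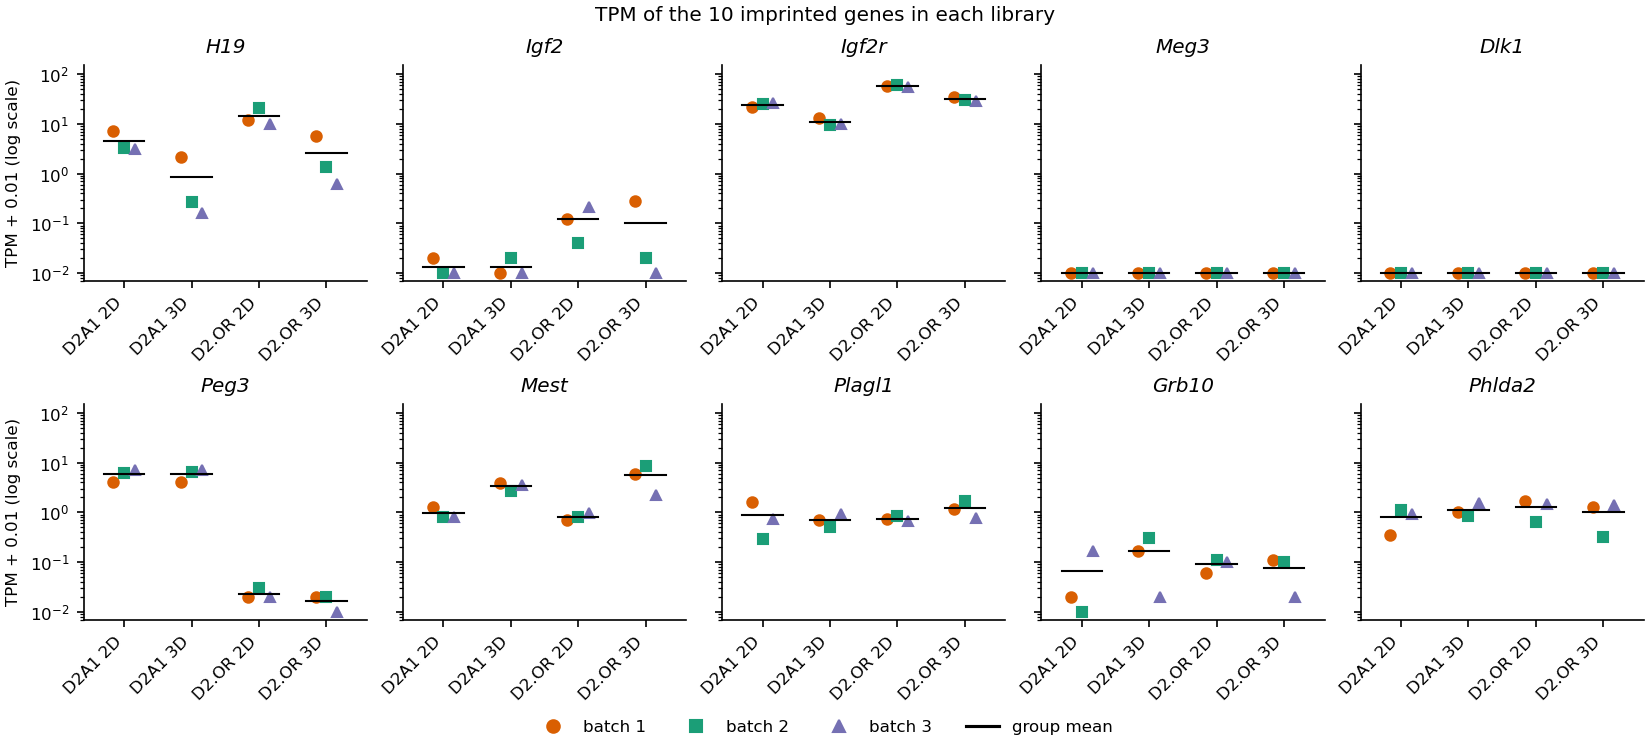
TPM of each member in each library, on a log scale after adding 0.01, with 1 point per library, shaped and coloured by batch, and a line at the group mean. Peg3 sits between 4.07 and 7.16 TPM in D2A1 and at 0.02 TPM or less in D2.OR, and Meg3 and Dlk1 are at 0 in all 12 libraries.

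H19 was lower in 3D than in 2D in both lines and higher in D2.OR than in D2A1. In D2.OR it had 11.89, 21.14 and 9.89 TPM in 2D (batches 1 to 3) and 5.79, 1.35 and 0.62 TPM in 3D. In D2A1 it had 7.06, 3.25 and 3.12 TPM in 2D and 2.13, 0.26 and 0.15 TPM in 3D. Within each line the 2D and 3D libraries did not overlap, and D2.OR 2D lay above all 9 other libraries. Of the other neighbours in the order of the means, D2A1 2D (4.48 ± 2.24 TPM) overlapped D2.OR 3D (2.59 ± 2.80 TPM), which overlapped D2A1 3D (0.847 ± 1.11 TPM).

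The fitted log2 fold change of H19 in 3D against 2D was -3.28 ± 0.69 (SE) in D2.OR and -2.92 ± 0.70 in D2A1. Within batches 1, 2 and 3, the log2 CPM differences were -1.22, -4.04 and -3.92 in D2.OR and -1.62, -3.68 and -4.13 in D2A1. Batch 1 thus gave the smallest difference in each line. Without batch 1 the fitted values were -4.01 and -4.11. The smallest values with a batch or library left out were -2.63 in D2.OR, without the batch 2 library of D2.OR 2D, and -2.36 in D2A1, without batch 3. In the fit, H19 was 1.81 ± 0.50 log2 units higher in batch 1 than in the mean of batches 2 and 3, from 1.23 without the batch 1 library of D2A1 3D to 2.39 without that of D2.OR 2D. Batch 1 was the highest in 3 of the 4 groups, and in D2.OR 2D it lay between batches 2 and 3. Between the lines, H19 was 4.24-fold higher in D2.OR in 2D (log2 fold change 2.08 ± 0.64) and 3.30-fold higher in 3D (1.72 ± 0.67). The 2D value ran from 1.45 without the batch 2 library of D2.OR 2D to 2.64 without its batch 1 library. The 3D value was 2.40 without batch 1, and ran from 1.18 without the batch 1 library of D2.OR 3D to 3.01 without that of D2A1 3D. The interaction of line and culture was -0.36 ± 0.91, less than its own error, and ran from -0.85 to 1.02 without those same libraries.

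**Figure D2:**
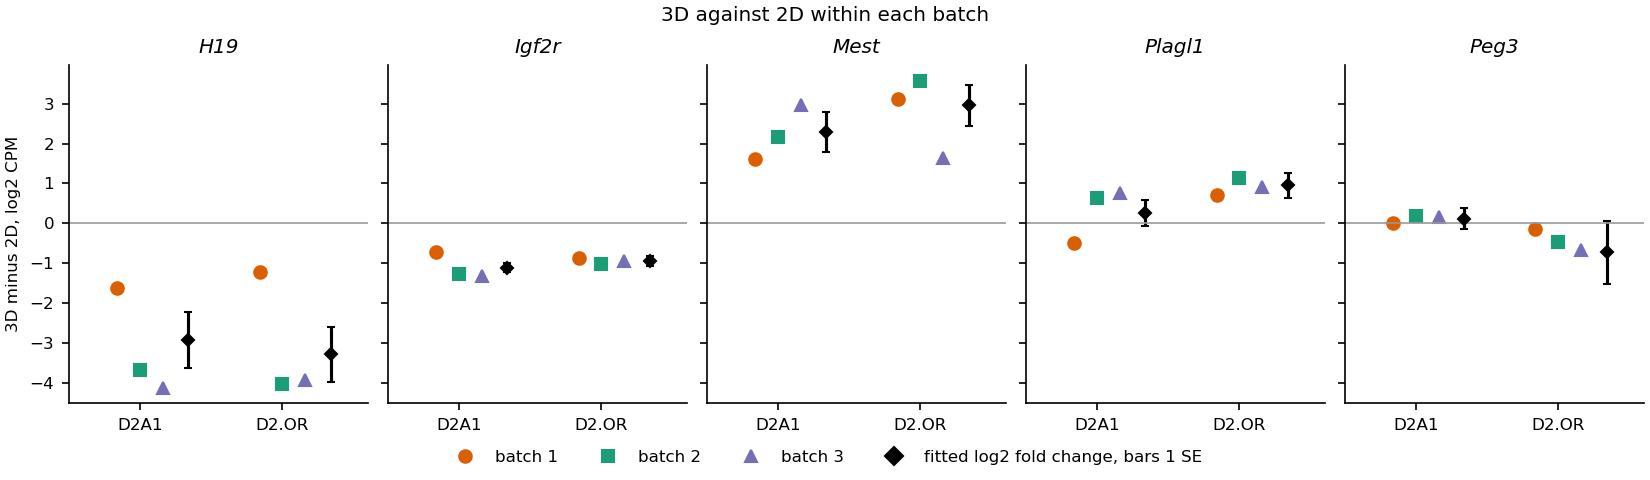
Difference between 3D and 2D in log2 CPM within each batch, for 5 members and both lines, with the fitted log2 fold change and 1 SE as a black diamond. H19 and Igf2r lie below 0 in all 3 batches of both lines and Mest lies above 0 in all 3 batches of both lines.

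H19's partner Igf2 was close to absent. It had 1, 0 and 0 counts in D2A1 2D, 0, 1 and 0 in D2A1 3D, 8, 3 and 2 in D2.OR 2D, and 11, 2 and 0 in D2.OR 3D. The ratio of the pooled counts of D2.OR to D2A1 was 12.8 in 2D (exact 95% interval 1.92 to 544) and 14.1 in 3D (2.12 to 600), each against a single count. These intervals, here and for the genes below, cover counting error only, since reads pooled over 3 libraries are not independent molecules and the spread between libraries is not in them. Its antisense transcript Igf2os had 5 counts in D2.OR 2D batch 1, 2 in D2.OR 3D batch 1 and 0 in all other libraries.

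Igf2r was lower in 3D and higher in D2.OR, with no overlap between any of the 4 groups. D2A1 had 21.40, 25.00 and 26.75 TPM in 2D and 12.82, 9.39 and 9.76 TPM in 3D. D2.OR had 56.65, 59.45 and 55.58 TPM in 2D and 34.31, 29.68 and 29.06 TPM in 3D. The log2 fold change of D2.OR against D2A1 was 1.36 ± 0.12 in 2D and 1.52 ± 0.12 in 3D. In 3D against 2D it was -0.94 ± 0.12 in D2.OR and -1.11 ± 0.12 in D2A1, with within-batch differences from -1.02 to -0.86 and from -1.31 to -0.72. Batch 1 differed by 0.04 ± 0.09. Igf2r was the only member with at least 100 counts in every library, so its abundance-weighted transcript length could be compared between the lines. It averaged 8839 bases in D2A1 and 8849 bases in D2.OR, a difference of 10.8 ± 53.0 bases (SD) over 6 pairs of the same culture and batch. D2.OR was longer in 3 of the 6 pairs (exact two-sided sign-flip permutation test, p = 0.75).

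Airn, on the strand opposite to Igf2r, had 31 to 222 counts per library. Its log2 fold change in 3D against 2D was -1.60 ± 0.41 in D2A1 (edgeR adjusted p = 0.0584) and -1.02 ± 0.40 in D2.OR (adjusted p = 0.23), and neither passed. Between the lines it was 0.34 ± 0.39 in 2D (adjusted p = 0.497) and 0.92 ± 0.41 in 3D (adjusted p = 0.0828). Whether the counting used strand is not given in the sources used here, and without strand reads of Airn and Igf2r in the shared stretch cannot be told apart.

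Peg3, a zinc finger gene expressed from the paternal copy, was expressed in D2A1 and nearly absent in D2.OR. It had 4.09, 6.16 and 7.09 TPM in D2A1 2D and 4.07, 6.39 and 7.16 TPM in D2A1 3D. In D2.OR it had 4, 4 and 1 counts in 2D and 3, 3 and 0 counts in 3D, where D2A1 libraries held 989 to 2577. The ratio of pooled counts of D2A1 to D2.OR was 536 in 2D (exact 95% interval 282 to 1173) and 948 in 3D (435 to 2583). The fitted log2 fold change of D2.OR against D2A1 in 3D, which at such low counts depends on the prior count, was -9.78 and ran from -10.44 without batch 1 to -9.04 without batch 3. In D2A1, 3D differed from 2D by 0.12 ± 0.26 on the log2 scale, less than its error.

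Usp29, a ubiquitin protease gene that shares the start region of Peg3 shown above, had 25 to 79 counts in each D2A1 library and 0 in all 6 D2.OR libraries. In 2D its level in D2.OR was at least 44.7-fold lower, and in 3D at least 50.9-fold lower, taking 3 counts over the group as the floor (edgeR adjusted p = 0.00148 and 0.00107). The other genes around Peg3 differed far less. The 8 tested genes within 500 kb, none of them on an imprinted list, had log2 fold changes of D2.OR against D2A1 from -1.09 to 0.71 in 2D (median 0.11) and from -1.01 to 1.45 in 3D (median 0.17).

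Mest, an enzyme of the hydrolase fold expressed from the paternal copy, was higher in 3D in both lines. It had 1.3, 0.80 and 0.81 TPM in D2A1 2D and 3.83, 2.63 and 3.55 TPM in D2A1 3D. In D2.OR it had 0.68, 0.78 and 0.97 TPM in 2D and 5.97, 8.72 and 2.26 TPM in 3D. The 2D and 3D libraries did not overlap in either line, while the lines overlapped within each culture. The log2 fold change in 3D against 2D was 2.96 ± 0.52 in D2.OR and 2.29 ± 0.50 in D2A1. The D2.OR value ran from 2.25 without the batch 2 library of D2.OR 3D to 3.45 without batch 3, and the D2A1 value from 1.83 without the batch 3 library of D2A1 3D to 2.76 without the batch 1 library of D2A1 2D. Between the lines it was -0.03 ± 0.51 in 2D and 0.64 ± 0.48 in 3D. The 3D line difference had no settled sign, with -0.11 without batch 2, -0.01 without the batch 2 library of D2.OR 3D and 1.31 without batch 3. The transcript length that RSEM weighted by abundance was 1544 to 2359 bases in the 2D libraries and 2101 to 2482 bases in 3D, from as few as 36.2 counts in a library. Mest overlaps the end of Copg2, read from the opposite strand, which had 2125.4 to 4930.8 counts.

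Marker genes of fat cells, where Mest is known to be abundant, also differed between these libraries. The summed TPM of Adipoq, Plin1 and Fabp4 was 57.4 to 480 in D2.OR 3D, 4.41 to 26.8 in D2.OR 2D, 10.9 to 18.2 in D2A1 3D and 19.4 to 34 in D2A1 2D. Plin1, which coats lipid droplets, had 5.65, 74.3 and 22.6 CPM in D2.OR 3D, and Mest had 7.87, 12.1 and 2.89 CPM in the same libraries. In D2A1 3D Adipoq had 3 counts or fewer in every library, Plin1 at most 5 and Fabp4 333 to 570, and in D2A1 2D Fabp4 had 501 to 732. The part of these genes in the Mest results was not tested.

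Plagl1, a zinc finger growth regulator, and Phlda2, a placental growth inhibitor, were low. RSEM's length for Plagl1 ran from 2276 to 5260 bases between libraries, so it is given in CPM, which does not use length. Plagl1 had 1.94, 0.813 and 0.932 CPM in D2A1 2D, 1.38, 1.28 and 1.59 in D2A1 3D, 1.46, 1.41 and 1.18 in D2.OR 2D, and 2.40, 3.13 and 2.24 in D2.OR 3D. In CPM the D2.OR 3D libraries lay above all others, with a log2 fold change of 0.95 ± 0.31 against D2.OR 2D and 0.87 ± 0.31 against D2A1 3D. In TPM they had 1.15, 1.70 and 0.76 and overlapped each of the other groups. The difference from D2.OR 2D was not called in any fit. That from D2A1 3D was not called on log2(TPM + 1), on log2(TPM + 0.1) or with the library total, beside 50.4%, 51.8% and 55.4% of all genes. Some fits with a batch or library left out also lost it. Phlda2 had 3 to 39 counts per library, and its log2 fold changes between the lines, 1.09 ± 0.60 for 2D and -0.27 ± 0.56 for 3D, lay within 2 SE of 0. The 2D value was 0.48 without batch 1 and 1.95 without batch 2.

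Grb10, an adaptor that dampens insulin and IGF signaling, had 0 to 11 counts per library and overlapping groups. Meg3, a long non-coding RNA, and Dlk1, a Notch ligand-like growth factor precursor, share an imprinted cluster on chromosome 12 and had 0 counts in all 12 libraries. A count of 0 allows up to 3 counts, or 0.0425 to 0.0607 CPM by library. At this depth neither was detectable.

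The members' counts are set beside those of all genes because many genes differed between the lines. In D2.OR against D2A1 in 2D, 2 of the 6 tested members passed the edgeR test as higher and 1 as lower, where 25.4% of all genes passed as higher and 24.4% as lower (20.2% and 32.1% with the library total in place of TMM). In 3D, 2 members were higher and 1 lower, beside 27.7% and 26.1%. The members called were H19, Igf2r and Peg3 in 2D and Igf2r, Plagl1 and Peg3 in 3D. Between the lines in 3D, H19 did not pass with edgeR under TMM and the filter on low counts. It passed there with DESeq2, on log2(TPM + 0.1) and with edgeR without the filter, beside 56.1%, 51.8% and 28.9% of all genes. In 3D against 2D, 1 member was higher and 1 lower in D2.OR, beside 0.838% and 0.785%, and 1 was higher and 1 lower in D2A1, beside 1.37% and 2.12%. In both lines these were Mest and Igf2r. H19 did not pass between cultures with edgeR under TMM and the filter on low counts. It passed in both lines with DESeq2, on log2(TPM + 1) and with edgeR without the filter, beside 7.26%, 1.69% and 1.39% of all genes in D2.OR and 23.1%, 4.52% and 3.75% in D2A1. It passed in D2A1 alone with DESeq2 size factors in edgeR, with at least 10 counts in every library and on log2(TPM + 0.1), beside 4.71%, 5.98% and 6.75%. Without the batch block, Igf2r alone was called in each line, beside 0.119% of all genes in D2.OR and 0.309% in D2A1. In D2.OR no member was called without the batch 2 or the batch 3 library of D2.OR 2D or without the batch 2 library of D2.OR 3D, where 5, 8 and 0 of all 16823 genes passed. In D2A1 none was called without the batch 2 library of D2A1 2D or without the batch 2 or the batch 3 library of D2A1 3D, where 0 of all genes passed each time. Leaving out all of batch 2 or all of batch 3 also left no member called in either line, with 0 or 1 of all genes passing. Without batch 1, H19, Igf2r and Mest were called in both lines, beside 8.15% of all genes in D2.OR and 36.2% in D2A1. Between the lines, 2 or 3 members were called in 2D and 2 to 4 in 3D with a batch or library left out, beside 24.9% to 53.8% and 31.3% to 60.2% of all genes. Igf2r and Peg3 were called each time. The H19 call in 2D was lost without the batch block, without batch 2 and without batch 3, beside 43.9%, 24.9% and 32.0%. It was also lost without the batch 1 or the batch 2 library of D2A1 2D, beside 52.4% and 40.5%. The same held without the batch 2 or the batch 3 library of D2.OR 2D, beside 38.3% and 40.1%. With edgeR no member passed for the interaction, beside 0.0238% of all genes. None had an unadjusted p under 0.05 there, while 2997 of all 16823 genes did. H19 was higher in batch 1, beside 8.48% higher and 4.80% lower. That call was lost without batch 2, without batch 3 and in 8 of the 12 fits without 1 library. The ranges of the groups did not overlap for 3 of the 6 members in 2D and 3 in 3D between the lines, where 53.2% and 60.1% of all genes did not overlap. Between cultures this was so for 4 members in D2.OR and 3 in D2A1, beside 22.7% and 26.0%. The members were chosen on these values, so nothing is read from the counts.

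The tested genes with a start within 500 kb of H19 that are on no imprinted list numbered 12. Of these neighbours, 11 had a log2 fold change below 0 in 3D against 2D in D2.OR (median -0.99, from -3.01 to 0.02) and 8 in D2A1 (median -0.18, from -2.31 to 0.92). Tnnt3, a muscle troponin gene, had -3.01 in D2.OR and -2.31 in D2A1, from a mean of 0.293 CPM. Mrpl23, a mitochondrial ribosomal protein gene and the closest neighbour, had -0.14 and -0.25. Ctsd, a lysosomal protease gene, had -0.59 and -0.58. Within 1 Mb there were 18 neighbours, with medians of -0.15 in D2.OR and -0.29 in D2A1. Between the lines the neighbours' median was 0.91 in 2D and 0.74 in 3D, with 11 and 8 of 12 above 0. Tnnt3, Mrpl23 and Ctsd were named after their values were seen.

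**Figure D3:**
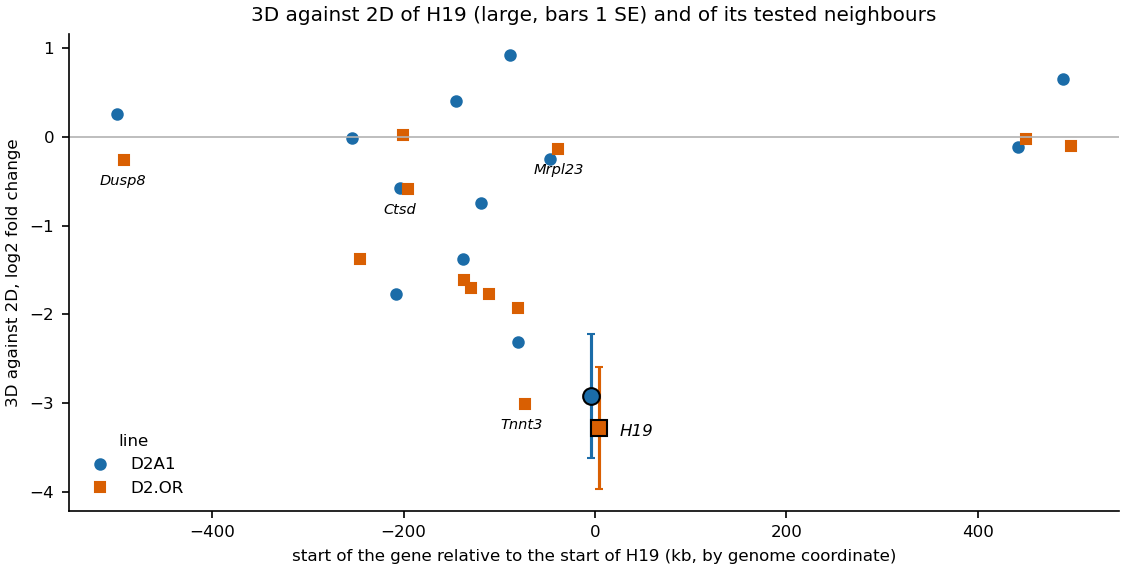
Log2 fold change of 3D against 2D for H19 (large symbols, bars of 1 SE) and its 12 tested neighbours, by the distance between gene starts in kb along the genome. H19 lies at -3.28 for D2.OR and at -2.92 for D2A1, while the neighbours range from -3.01 to 0.92.

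Over the 12 libraries, the genes whose log2 CPM followed H19 most closely were Plscr3 (Pearson r = 0.967), Stat2 (0.964), Add1 (0.962), 9130208D14Rik (0.960) and Psmb8 (0.957), of 12709 genes with a mean of at least 1 CPM. The libraries fall into 4 groups and share batches, so these values describe a likeness of pattern over 12 points that are not independent.

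Apart from the members, 57 imprinted genes were listed from general knowledge, and 30 passed the filter. In D2.OR against D2A1 in 2D, 8 of the 30 were higher, 9 were lower and 13 did not pass, with a median log2 fold change of 0.07 against 0.00 over all genes. In 3D, 8 were higher, 8 were lower and 14 did not pass, with a median of 0.09. Those shares lie near the shares of all genes given above.

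**Figure D4:**
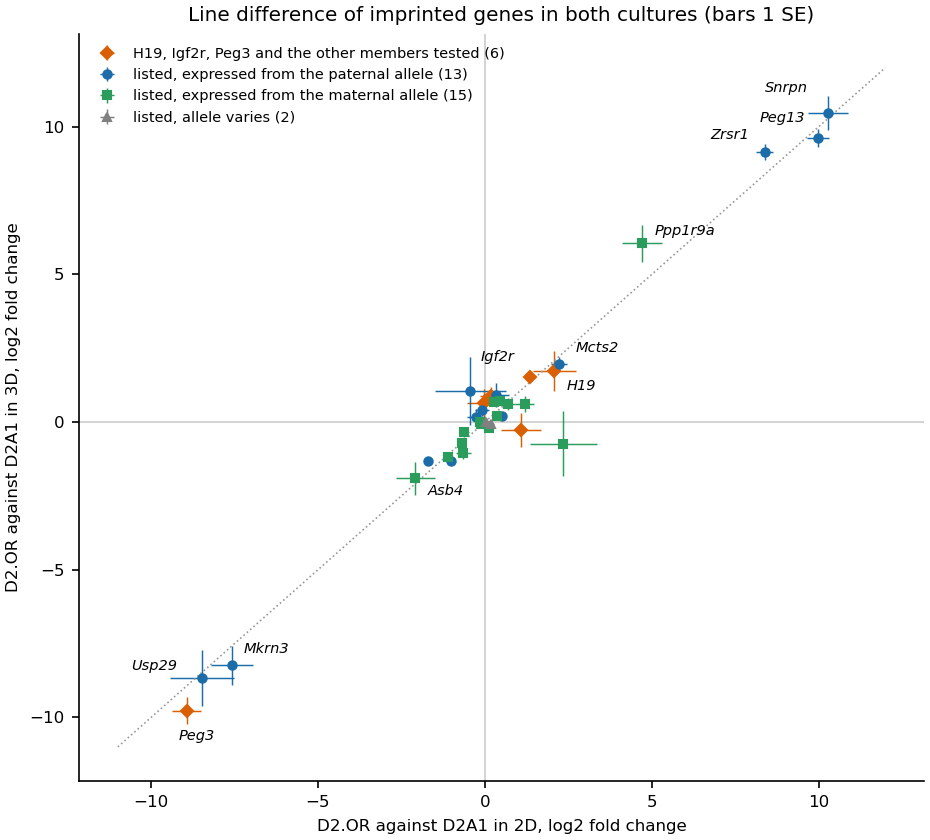
Log2 fold change between the lines, D2.OR over D2A1, for 2D (horizontal) and for 3D (vertical), with bars of 1 SE, for the 6 tested members and the 30 other listed imprinted genes. Colour marks the members and the parental copy under which the other genes were listed. Peg3, Usp29 and Mkrn3 lie at the lower left, with values of -7.59 or below, and Snrpn, Peg13 and Zrsr1 at the upper right, with values of 8.38 or above.

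The 5 tested genes of the list with the largest log2 fold change between the lines, in 2D and in 3D alike, were Snrpn, Peg13, Zrsr1, Usp29 and Mkrn3, all listed as expressed from the paternal copy. Of the 13 tested paternal genes of the list, 5 were higher and 4 lower in D2.OR in 2D, and 4 and 4 in 3D. Of the 15 tested maternal genes, 3 were higher and 5 lower in 2D, and 4 and 4 in 3D. Mkrn3, a zinc finger gene of the Prader-Willi region, was lower in D2.OR, with a mean of 3.79 CPM in D2A1 2D against 3 counts in D2.OR 2D (adjusted p = 1.95e-05), and a pooled count ratio of 214 (exact 95% interval 72.7 to 1038). Snrpn, a splicing protein gene of the same region on chromosome 7, went the opposite way. It had 0 counts in all 6 D2A1 libraries, and its level in D2.OR was at least 144-fold higher for 2D and at least 199-fold higher for 3D (adjusted p = 0.000131 and 9.9e-05). Zrsr1, a splicing factor gene, had 0.104 ± 0.0331 CPM in D2A1 2D and 34.8 ± 4.72 CPM in D2.OR 2D, a ratio of 349 (218 to 600). Peg13, a non-coding RNA, had 0.0545 ± 0.0330 and 55.4 ± 6.28 CPM, a ratio of 1046 (551 to 2289). Mcts2, a retrotransposed copy of a translation factor gene, was 2.23 ± 0.24 log2 units higher in D2.OR in 2D (adjusted p = 9.43e-05). In 3D these genes passed as well, with log2 fold changes of -8.24 for Mkrn3, 10.46 for Snrpn, 9.15 for Zrsr1, 9.61 for Peg13 and 1.95 for Mcts2. With 0 counts in D2A1, the Snrpn value depends on the prior count, and only the bound above is read. Mkrn3 had 2 counts in D2.OR 3D, so its fitted value depends on the prior count too.

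The list held 6 pairs of genes in which one lies within the other. Nnat, within Blcap, was not called between the lines (-0.27 ± 0.28 in 2D, adjusted p = 0.449), nor was Blcap (0.03 ± 0.10, adjusted p = 0.805). Kcnq1ot1, a non-coding RNA within Kcnq1, was not called either (-0.09 ± 0.21 in 2D, adjusted p = 0.754), and Kcnq1 and Snurf, which lies within Snrpn, did not pass the filter. Zrsr1, Mcts2 and Peg13 each lie within a gene listed as expressed from the maternal copy, which these libraries cannot show. Zrsr1 (chr11:22973215-22976496) lies within Commd1, on the opposite strand. Commd1, which regulates copper and NF-kB, was lower in D2.OR by log2 fold changes of -1.11 ± 0.11 in 2D (adjusted p = 5.59e-05) and -1.17 ± 0.11 in 3D (adjusted p = 3.88e-05). Mcts2 (chr2:152687035-152687951) lies within H13, a signal peptide peptidase, which was lower by -0.70 ± 0.08 in 2D (adjusted p = 0.000168) and -0.70 ± 0.08 in 3D (adjusted p = 0.000156). Peg13 (chr15:72805600-72810324) lies within Trappc9, which was not called in 2D and was higher by 0.69 ± 0.15 in 3D (adjusted p = 0.00397). In CPM, Trappc9 was 65.5 ± 4.72 in D2.OR 2D against 53.9 ± 5.40 in D2A1 2D. The pairs were set side by side after their values were seen. Mcts2 and Peg13 lie on the same strand as the outer gene.

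Among the other genes listed as maternally expressed, Ppp1r9a, an actin-binding scaffold, was higher in D2.OR by 4.71 ± 0.61 in 2D (adjusted p = 0.000272) and 6.05 ± 0.64 in 3D (adjusted p = 7.87e-05). It had 16 counts in all in D2A1 2D and 13 in D2A1 3D. Tnfrsf23, a decoy receptor, was 1.19 ± 0.28 higher in 2D (adjusted p = 0.00653). Cobl, an actin nucleator, was 0.68 ± 0.21 higher in 2D (adjusted p = 0.0214). Ampd3, an AMP deaminase, was lower in 3D (log2 fold change -1.04 ± 0.22, adjusted p = 0.00348), and Osbpl5, a lipid transfer protein, was 0.73 ± 0.16 higher in 3D (adjusted p = 0.0051).

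**Figure D5:**
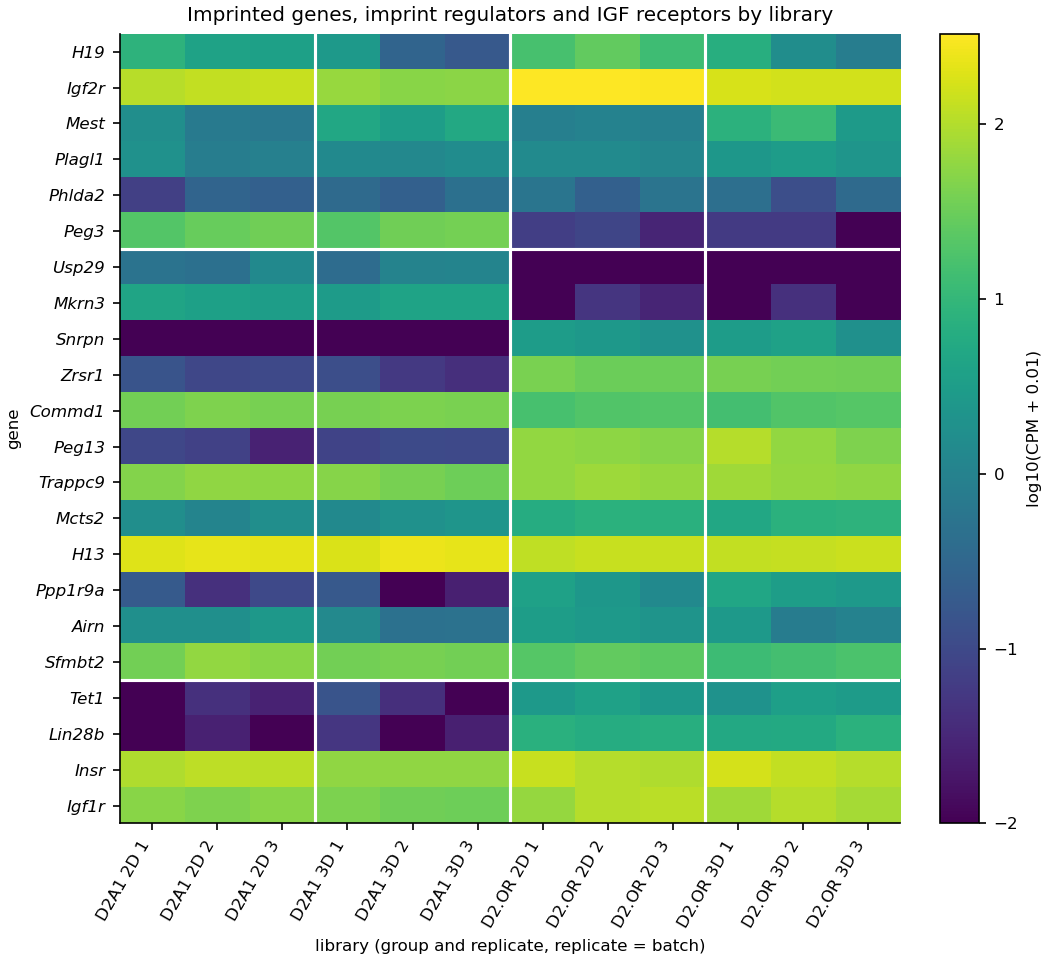
Log10 of CPM + 0.01 for the 6 tested members (top), 12 other imprinted genes (middle) and 4 regulators or receptors (bottom) in each of the 12 libraries. Peg3, Usp29 and Mkrn3 are dark in the 6 D2.OR libraries, and Snrpn, Zrsr1, Peg13, Tet1 and Lin28b are dark in the 6 D2A1 libraries.

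Between cultures in D2.OR, 1 of the 30 listed genes was higher and 1 lower in 3D, beside 0.838% and 0.785% of all genes. The lower one was Sfmbt2, a Polycomb-group gene (log2 fold change -0.70 ± 0.14, adjusted p = 0.0495). None was lower there with DESeq2 size factors or the library total, and without batch 2 or without batch 3 none of the 30 passed, where 0 and 1 of all genes did. Sfmbt2 was also lower in D2.OR than in D2A1, by log2 fold changes of -1.03 ± 0.14 in 2D (adjusted p = 0.000392) and -1.32 ± 0.14 in 3D (adjusted p = 9.05e-05). In D2A1 none of the 30 passed with edgeR, beside 3.48% of all genes, and 5 passed with the likelihood-ratio test of DESeq2, beside 23.1%. With edgeR 9 of the 30 had an unadjusted p under 0.05 in D2A1 and 9 in D2.OR, beside 5282 and 2967 of all 16823 genes. For the interaction none passed with edgeR or DESeq2. With edgeR 0 had an unadjusted p under 0.05, beside 2997 of all 16823 genes. The median log2 fold change between cultures was -0.03 in D2.OR and -0.02 in D2A1. Without batch 1, 5 of the 30 passed in D2.OR, 10 in D2A1 and 5 for the interaction, beside 8.15%, 36.2% and 17.8% of all genes. In batch 1 against batches 2 and 3, 5 of the 30 were higher and none lower with edgeR, and with DESeq2 size factors 4 were higher and 1 lower. The number was 0 without batch 2 and 1 without batch 3, where 0.802% and 1.47% of all genes passed, against 13.3% with all batches. Cobl had 1.31 ± 0.15 (adjusted p = 0.00181), Osbpl5 0.67 ± 0.12 (adjusted p = 0.00958) and Gnas, a G protein subunit, 0.23 ± 0.07 (adjusted p = 0.0466).

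Genes that set or keep methylation and imprints were listed as well, 23 in all with 21 tested, and 7 partners of IGF2 with 6 tested. In 2D, 6 of the 27 were higher in D2.OR and 3 lower, beside 25.4% and 24.4% of all genes. With the library total in place of TMM, or on log2(TPM + 0.1), the split was 3 and 5, and the number called fell to 2 without batch 2 and to 3 without batch 3, where 24.9% and 32.0% of all genes passed, against 49.8% with all batches. Leaving out the first D2.OR 2D library gave 4, and leaving out the second gave 5, beside 43.3% and 38.3% of all genes. Tet1, which oxidizes methylated cytosine, had 3 counts in D2A1 2D and 503 in D2.OR 2D, a ratio of 165 (exact 95% interval 56.2 to 803, adjusted p = 0.000148). Lin28b, an RNA-binding protein of fetal growth programs, had 1 count in D2A1 2D and 1184 in D2.OR 2D (adjusted p = 3.82e-06). Smaller differences were those of the maintenance methyltransferase Dnmt1 (-0.46 ± 0.16, adjusted p = 0.0345), Zfp445, which guards imprints (-0.45 ± 0.09, adjusted p = 0.00358), Arid4a (0.39 ± 0.10, adjusted p = 0.0127) and Tet2 (0.37 ± 0.13, adjusted p = 0.038). The type I receptor Igf1r, which binds IGF2, was 0.88 ± 0.21 higher in D2.OR (adjusted p = 0.00799).

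In 3D, 9 of the 27 were higher in D2.OR and 6 lower, beside 27.7% and 26.1% of all genes, and 9 passed in all without batch 3, beside 35.4%. Tet1 was 5.55 ± 0.71 higher (adjusted p = 0.00023), Tet2 0.74 ± 0.13 (adjusted p = 0.00119) and the de novo methyltransferase Dnmt3a 0.69 ± 0.15 (adjusted p = 0.00354). Zfp57, which binds methylated imprints, had -1.27 ± 0.26 (adjusted p = 0.00289) and Dnmt1 -0.80 ± 0.16 (adjusted p = 0.00236). Of the IGF2 partners, Lin28b was 8.16 ± 0.52 higher (adjusted p = 4.27e-06), Igf1r 1.25 ± 0.22 (adjusted p = 0.0012) and the insulin receptor Insr 1.17 ± 0.17 (adjusted p = 0.0004), while Igf2bp1, which binds Igf2 RNA, had -1.13 ± 0.35 (adjusted p = 0.023).

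In 3D against 2D, none of the 27 passed in D2.OR with edgeR, beside 1.62% of all genes, and 2 passed with DESeq2, beside 7.26%. With edgeR 4 of the methylation list and 1 IGF2 partner had an unadjusted p under 0.05, beside 2967 of all 16823 genes. In D2A1, 1 was higher and 2 lower with edgeR, beside 1.37% and 2.12% of all genes, and on log2(TPM + 0.1) none was higher and 3 were lower. Without batch 2 or without batch 3, 0 of all 16823 genes passed, these 27 included, while 17 of the 27 and 36.2% of all genes passed without batch 1. The lower ones were Insr (-0.88 ± 0.16, adjusted p = 0.037) and Arid4b (-0.41 ± 0.09, adjusted p = 0.0453), and the higher one was Dnmt3l, which has less than 1 CPM and was named after its values were seen. Insr differed between the lines in its response by 1.12 ± 0.23, in the same direction in all 3 batches, and the interaction did not pass (adjusted p = 0.101). None of the 27 passed for the interaction with edgeR. There 4 of the methylation list and 3 partners had an unadjusted p under 0.05, beside 2997 of all 16823 genes. With DESeq2 2 passed, beside 5.96% of all genes, and 9 did with edgeR without batch 1, beside 17.8%. In batch 1 against batches 2 and 3, 1 was higher and 4 were lower, beside 8.48% and 4.80% of all genes, and 0 passed without batch 2 or without batch 3, where 0.802% and 1.47% of all genes did. They were Igf2bp1 (1 ± 0.26, adjusted p = 0.0349), Dnmt3l (-3.65 ± 0.67, adjusted p = 0.00996), Setdb1 (-0.78 ± 0.16, adjusted p = 0.014), Tet2 (-0.68 ± 0.10, adjusted p = 0.0043) and Tet3 (-0.28 ± 0.07, adjusted p = 0.0369).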

How the data were processed

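The 12 libraries hold RNA of both lines in both cultures. Per the labels and the study's methods, the authors trimmed reads with Trimmomatic 0.32, aligned them with STAR 2.5.3 to GRCm38 (GENCODE M15) and quantified genes with RSEM 1.3.0. The expected counts deposited by the authors are not normalized, since RSEM only divides reads that fit several genes. The deposited TPM values are scaled by the authors for length and library size. The deposited transcript length, in bases, is weighted by abundance.

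Expected counts were rounded here and tested by the quasi-likelihood method of edgeR 4.0.16 in R 4.3.3 with TMM scaling and filterByExpr. The model held all 12 libraries, a mean per group and a batch block, with Benjamini-Hochberg adjustment over 16823 genes and a threshold of 0.05. CPM values use TMM library sizes, and log2 CPM adds a prior count of 2. Libraries of equal number are paired, as the study uses the replicate number as its batch. Deviations from the group means correlated by 0.076 to 0.511 over pairs with the same number. Where groups were within a few counts of 0, pooled counts were compared with an exact binomial interval, or against a floor of 3 counts. The study states in general that findings rest on biological repeats, and the labels do not say how these replicates were grown.

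The members and lists were chosen with earlier results of these data known. Genes named were all members, their overlapping genes, the called genes of each list and comparison with the largest changes (up to 5, with a group mean of 1 CPM or more), and the 5 genes most like H19. One called gene of the imprinted list is counted but not reported by name here. Alternatives were no batch block, DESeq2 1.42.0, limma 3.58.1 on log2(TPM + 1) and log2(TPM + 0.1), other scalings and filters, and each batch or library left out. Deposited FPKM values were not used here.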

Additional observations from a re-analysis of the deposited data

How the results depend on the processing

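The counts of listed imprinted genes called between the lines stayed within 1.5 times under every alternative tried but 1. The count went from 16 to 9 in 3D with at least 10 counts in every library, which tests fewer genes. With 1 batch or library left out they ran from 12 to 19 in 2D and from 12 to 20 in 3D, and those of the 27 regulators and partners from 2 to 12 and from 9 to 18, beside the shares of all genes given above for these fits.

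Culture counts moved more, as did those of all genes (1.62% called in D2.OR and 3.48% in D2A1, but 7.26% and 23.1% with DESeq2 and 0.119% and 0.309% without the batch block). For listed imprinted genes in D2.OR, the 2 calls became 0 without the batch block, 6 with DESeq2, and 1 with either limma scale, DESeq2 size factors, the library total, or at least 10 counts, and ran from 0 to 5 with a batch or library left out. In D2A1 the 0 became 5 with DESeq2, 1 on log2(TPM + 0.1) and 1 with no filter, and ran from 0 to 10. For regulators in D2.OR the 0 became 2 with DESeq2 and 1 with no filter, and ran from 0 to 3. In D2A1 the 3 became 0 without the batch block, 10 with DESeq2 and 1 on log2(TPM + 1), and ran from 0 to 17. With a batch or library left out, 0% to 8.15% of all genes were called in D2.OR and 0% to 36.2% in D2A1. For the interaction, DESeq2 called 2 regulators and 5.96% of all genes, and leave-outs ran from 0 to 5 for imprinted genes and from 0 to 13 for regulators, beside 0% to 17.8% of all genes. In batch 1, imprinted genes went from 5 to 12 with DESeq2, beside 13.3% and 19.9% of all genes, and regulators from 5 to 2 on log2(TPM + 1) and 3 on log2(TPM + 0.1), beside 10.2% and 11.5%. With a batch or library left out both ran from 0 to 8, beside 0.802% to 21.1%. The cause was not tested. Leaving out the batch block changed no other of these counts by more than 1.5 times. It gives no batch comparison, and neither does leaving out batch 1.

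Of 840 alternative values for members and neighbours, 792 moved by less than the spread and 48 by more. On log2(TPM + 1), where low genes shrink, the line differences in 2D and 3D were -2.72 and -2.74 for Peg3 and 1.49 and 0.84 for H19, with 0.36 for Plagl1 in 3D and 0.33 for Phlda2 in 2D. The culture differences in D2.OR and D2A1 were -2.30 and -1.65 for H19 and 1.74 and 1.14 for Mest, with 0.33 for Plagl1 in D2.OR, and the batch 1 value of H19 was 0.96. On log2(TPM + 0.1) the line differences of Peg3 were -5.66 and -5.77, and the D2A1 culture difference of Mest was 1.70. Without the batch block the culture differences of H19 were -2.60 in D2.OR and -2.34 in D2A1. The Igf2r length difference ran from -2.8 to 20.6 bases with a batch left out, where 4 pairs cannot pass. With the library total alone, the median log2 fold change of all genes between the lines in 2D was -0.167, against -0.003 with TMM.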

Other observations

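Among listed genes too low for the filter, 3 had counts in every library of one line and none in the other. Kcnq1, a potassium channel gene of the imprinted cluster that also holds Phlda2, had 0 counts in all 6 D2A1 libraries. In D2.OR it had 91, 8 and 8 counts in 2D and 52, 1 and 5 in 3D, so the D2.OR values came mostly from batch 1. Snurf, which shares the Snrpn transcript, had 0 expected counts in all D2A1 libraries and 4.1 to 10.5 in each D2.OR library. Mirg, a non-coding RNA of the Meg3 cluster, went the opposite way, with 1 to 5 counts in each D2A1 library and 0 in all 6 D2.OR libraries. Ppp1r9a differed between cultures in opposite directions in the lines in all 3 batches, by 0.57 ± 0.46 in D2.OR and -0.77 ± 0.78 in D2A1 on the log2 scale, and the interaction did not pass (1.34 ± 0.91, edgeR adjusted p = 0.459). These genes were picked after their values were seen.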
